A study of Homo sapiens with 6 samples.

Results

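The genes described here are the integrin chains and the laminin chains, read in MHCC97H cells labelled resistant to sorafenib and in control MHCC97H cells labelled sensitive. They were taken by gene symbol from the count table: 35 genes of 19202, of which 17 encode integrin alpha chains, 8 integrin beta chains and 10 laminin chains. MHCC97H is an established human hepatocellular carcinoma line derived for its metastatic spread. Sorafenib blocks several kinases and is given against advanced liver cancer. There were 3 resistant libraries (labelled SR) and 3 control libraries, and the labels do not state a dose, a time, a clone or separate cultures. P-values below therefore rest on library-to-library spread, which could be technical.

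Integrins are cell-surface receptors built from an alpha and a beta chain. The pair decides which matrix protein the receptor binds, and the inner tails tie the receptor to actin through adaptors such as talin and kindlin. Laminins are large secreted proteins of an alpha, a beta and a gamma chain, and they form the sheet-like core of basement membranes. In normal liver, laminins surround bile ducts and vessels and are sparse along the sinusoids, and they appear in the matrix of liver tumours.

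Of the 35 genes, 25 passed the filter on low counts and were tested. In edgeR's quasi-likelihood test 4 of these were higher and 4 lower in resistant cells at an adjusted p under 0.05, which is 32% of those tested. Over all 10804 genes tested, 24.1% were called, 11.7% higher and 12.3% lower. The genes called higher were ITGB1, LAMB3, ITGAV and ITGA3, and those called lower were ITGB4, LAMB1, ITGA11 and LAMA1. The median log2 fold change (log2FC, resistant over control) was -0.07 over the 25 tested genes and -0.01 over all tested genes. Libraries of the groups did not overlap for 10 of the 25 genes, 5 above and 5 below, against 38.1% of all tested genes. In the same test without resistant replicate 3, 2 of the 25 remained called higher (ITGB1 and LAMB3) and 4 lower.

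**Figure D1:**
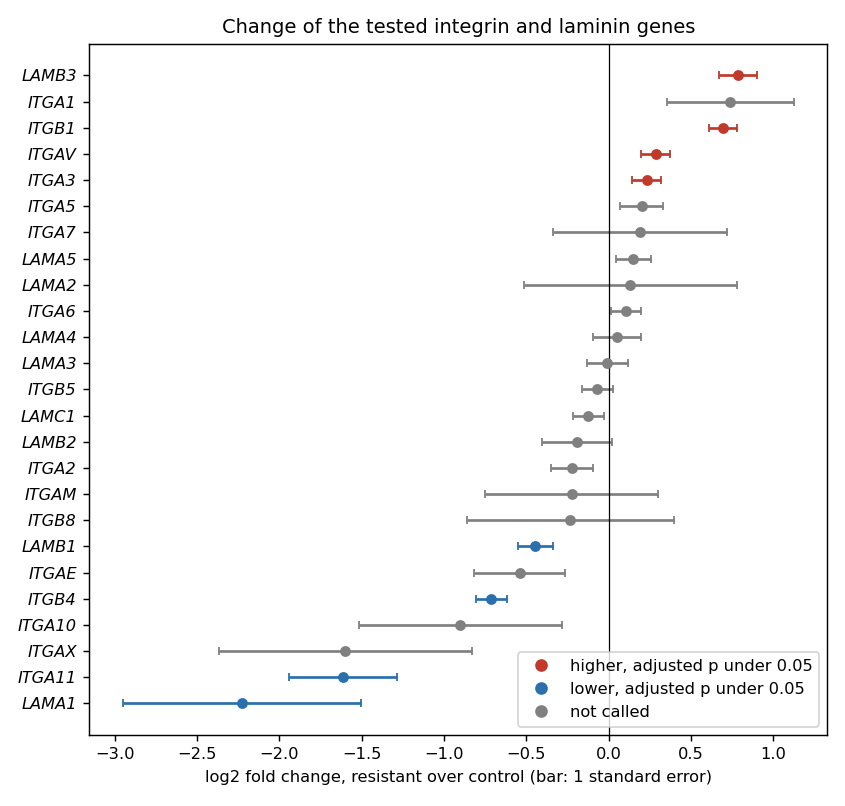
Log2 fold change of each of the 25 tested integrin and laminin genes on the horizontal axis, resistant over control, with a bar of 1 standard error. Red points are the 4 genes called higher, blue points the 4 called lower, and the bars are widest for genes of low count such as LAMA1 and ITGAX.

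Libraries summed to between 3745068 and 4961907 counts in resistant cells and between 1913469 and 5345272 in control cells. Of 7 epithelial and liver tumour markers 5 were tested and 1 was called, the list summing to 1777 to 2138 CPM in resistant and 1871 to 2403 CPM in control libraries. The called marker was the cadherin CDH1, lower in resistant cells with 7.02, 10.3 and 9.17 CPM, against 41.0, 10.5 and 11.1 CPM in control cells. Most of that difference lay in control replicate 1, the library of fewest counts, as the other control libraries were close to resistant replicate 2. A fit without control replicate 1 is not given for CDH1. EPCAM had 6 counts over the resistant and 16 over the control libraries, GPC3 2 and 0, and AFP 42 and 30. The keratins KRT8 and KRT18 made up most of the list. KRT8 had 1007 to 1205 CPM in resistant and 1099 to 1396 CPM in control cells. Of 17 hepatocyte markers 9 passed the filter and 3 of these were lower (33.3%, against 12.3% of all tested genes lower). The median log2FC of the 9 was -0.75. For 6 of them all resistant libraries lay below all control libraries, as for 18.8% of all tested genes. The liver regulator HNF4A, also in this list, overlapped, at 35.9 to 44.7 CPM in resistant and 37.9 to 41.6 CPM in control cells. The list summed to 84.6 to 103 CPM in resistant and 138 to 147 CPM in control libraries, with APOA2 at 0 in every library. The part of this in the results below was not tested. CPM are counts per 1e6 of the library total, the total scaled by its TMM factor. Resistant replicate 3 stood apart in markers of vessel and stromal cells. Its 10 endothelial markers summed to 209 CPM, against 116 and 137 CPM in the other resistant libraries and 122 to 141 CPM in control. Its 13 fibroblast and stellate markers summed to 165 CPM, against 53.4 and 35.1 CPM in the other resistant libraries and 38.4 to 65.2 CPM in control. The endothelial cadherin CDH5 had 19.2 CPM in that library and was at 0 in the other resistant libraries, with at most 3.07 CPM in control. In such bulk libraries fewer cells of a type and less RNA per cell cannot be told apart. Values without resistant replicate 3 are given below for the called chains, for their shares and for calls outside the marker lists that depend on that library.

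Promoter sequence is shown for called genes whose calls stayed in every leave-one-out fit, a pair that rose (ITGB1 and LAMB3) and a pair that fell (LAMB1 and ITGA11). The stretches are from RefSeq on GRCh38.p14, read from the 5′ end in the direction of the gene, and come from the 250 bases before a transcription start, without bases that GENCODE 29 places in an exon. Capitals mark TGANTCA, the AP-1 motif, or CATTCC and its reverse complement GGAATG, the TEAD motif, searched on both strands.
ITGB1 promoter, chr10:32958231-32958480, minus strand: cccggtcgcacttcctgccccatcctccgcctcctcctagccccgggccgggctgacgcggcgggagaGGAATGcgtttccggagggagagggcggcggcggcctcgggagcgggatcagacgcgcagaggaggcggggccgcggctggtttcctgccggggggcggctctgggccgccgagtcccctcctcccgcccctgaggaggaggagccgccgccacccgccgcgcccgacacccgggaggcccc
LAMB3 promoter, chr1:209651375-209651624, minus strand: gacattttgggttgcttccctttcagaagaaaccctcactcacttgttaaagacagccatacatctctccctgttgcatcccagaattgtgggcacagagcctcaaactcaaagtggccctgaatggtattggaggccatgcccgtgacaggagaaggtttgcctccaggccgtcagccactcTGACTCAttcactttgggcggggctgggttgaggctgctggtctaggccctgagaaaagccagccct
LAMB1 promoter, chr7:108003256-108003411, minus strand: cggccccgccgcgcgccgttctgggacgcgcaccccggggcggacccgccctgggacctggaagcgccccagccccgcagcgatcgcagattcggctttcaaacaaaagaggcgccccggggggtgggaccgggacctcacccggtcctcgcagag
ITGA11 promoter, chr15:68432164-68432413, minus strand: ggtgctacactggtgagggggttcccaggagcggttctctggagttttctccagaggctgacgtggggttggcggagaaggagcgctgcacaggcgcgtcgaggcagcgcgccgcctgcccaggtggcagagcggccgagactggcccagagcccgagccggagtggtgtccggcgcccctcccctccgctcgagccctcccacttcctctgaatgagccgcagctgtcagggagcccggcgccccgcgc
The ITGB1 stretch holds a TEAD match and the LAMB3 stretch an AP-1 match, neither overlapping another match, and the stretches of LAMB1 and ITGA11 hold neither. The other windows of ITGB1 and LAMB3 in the table hold neither. Of the 35 genes, 25 have a promoter in the table, in 32 windows, and 2 windows (6.25%) hold the AP-1 letters and 4 (12.5%) the TEAD letters. Among all 35116 windows of that length the shares were 6.57% and 11.9%. ITGB4 has no entry in that table.

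Among the beta chains, ITGB1 rose and ITGB4 fell. ITGB1, the common partner of most alpha chains for laminin, collagen and fibronectin, had 1003, 1059 and 1089 CPM in resistant cells, against 607, 697 and 639 CPM in control cells. All resistant values were above all control values. The means were 1050.4 ± 43.4 CPM in resistant and 647 ± 45.8 CPM in control cells (SD, n = 3 each), 1.62-fold higher (log2FC 0.70, SE 0.09, adjusted p = 5.55e-08 in edgeR). Without resistant replicate 3 the log2FC was 0.68 (adjusted p = 8.85e-07 in edgeR). ITGB1 occupies chromosome 10, minus strand, 32900319 to 33005792. Gene spans are those of GENCODE 29 on GRCh38 by symbol, and no source used here names the build of the counts. Of 17 other tested genes within 5 Mb of it, 6 were higher and 1 lower in resistant cells, with a median log2FC of 0.14. Their part in the ITGB1 result was not tested. Over all tested genes 11.7% were higher and 12.3% lower, the shares to set beside this and later counts of neighbours.

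ITGB4 is the beta chain that pairs with ITGA6 alone and anchors hemidesmosomes to keratin filaments. It had 221, 217 and 211 CPM in resistant cells, against 338, 348 and 375 CPM in control cells, again without overlap. The means were 216 ± 5.07 CPM in resistant and 354 ± 19.2 CPM in control cells (SD, n = 3 each), a log2FC of -0.71 (SE 0.09) at an adjusted p of 2.27e-07 in edgeR. Without resistant replicate 3 the log2FC was -0.68 (adjusted p = 9.08e-06 in edgeR). ITGB4 lies on the plus strand of chromosome 17, from 75721328 to 75757818, where 12 of 88 tested neighbours within 5 Mb were higher and 16 lower. ITGB5, a partner of ITGAV, had 274, 243 and 253 CPM in resistant and 264, 260.3 and 281 CPM in control cells, overlapping groups with a log2FC of -0.07 (SE 0.10, adjusted p = 0.665, edgeR's test).

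The remaining beta chains were near the limit of detection. ITGB8, also a partner of ITGAV, had 1.62, 3.98 and 2.04 CPM in resistant and 2.05, 3.19 and 3.51 CPM in control cells and was not called. The filter removed the leukocyte chain ITGB2 with 39 counts over the resistant and 16 over the control libraries, the leukocyte chain ITGB7 with 26 and 17, and the epithelial chain ITGB6 with 4 and 10. ITGB7 shares 1474 exon bases with ZNF740 on the opposite strand, so its few counts are uncertain. ITGB3, the platelet and vessel chain, had 2 counts, both in resistant replicate 3, and 0 in control. A count of 0 over the control libraries allows up to 0.281 CPM, taking 3 counts over the group, and this covers counting error only.

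To compare chains with each other, CPM were divided by the exon length of each gene, which gives CPM per kilobase. ITGB1 was the most abundant beta chain at 267 ± 11.1 CPM per kilobase in resistant and 165 ± 11.7 in control cells (SD, n = 3 each). ITGB5 followed at 58.7 ± 3.71 and 61.5 ± 2.57, and ITGB4 at 34.95 ± 0.820 and 57.2 ± 3.10, in that order of groups. ITGB5 lay above ITGB4 by more than either SD in both groups. As a share of all 8 beta chains, ITGB1 took 71.8, 74.4 and 74.7% in resistant libraries, against 57.2, 60.2 and 56.1% in control libraries. ITGB4 took 10.04, 9.69 and 9.19% in resistant libraries, against 20.2, 19.1 and 20.9% in control libraries. ITGB1 thus held 15.8 percentage points more in resistant cells, and the ITGB4 share differed by -10.5 points, both without overlap. These differences were 15.3 and -10.2 points without resistant replicate 3. ITGB5, which did not itself pass the test, took 16.2 ± 1.27% and 21.6 ± 1.21% (SD, n = 3 each). With 3 libraries against 3 the two-sided exact permutation test cannot go below p = 0.10, and these 3 shares each reached it (0.186 after Benjamini-Hochberg adjustment over 13 shares). ITGB1 and ITGB4 already separated the groups by level, so their shares are no separate support. The ITGB5 share is taken over a total that holds ITGB1, and the level of ITGB5 itself overlapped between groups. Its smaller share is therefore no evidence of a fall in ITGB5.

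**Figure D2:**
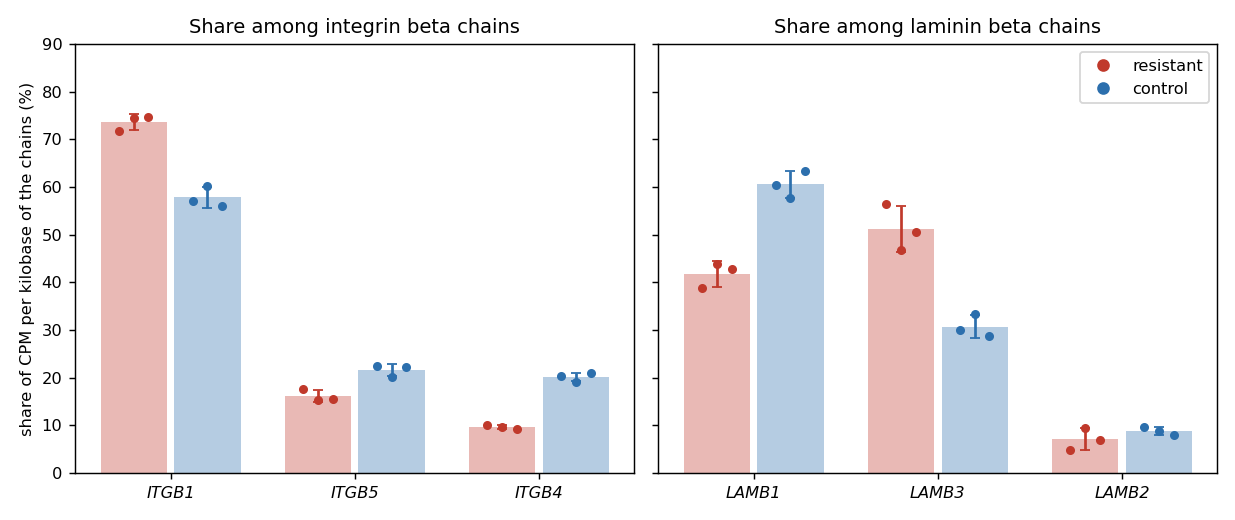
Share of each abundant beta chain in the CPM per kilobase of the listed integrin beta chains (left) and of the listed laminin beta chains (right), with resistant libraries in red left of control libraries in blue. Bars are means, error bars SD and points libraries (n = 3 each). ITGB1 and LAMB3 held larger shares in every resistant library than in any control library, and ITGB4 and LAMB1 smaller ones.

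Among the alpha chains, ITGAV, ITGA6 and ITGA3 were the most abundant in both groups, and changes among them were small. ITGAV, which binds vitronectin, fibronectin and latent TGF-beta, had 676, 758 and 742 CPM in resistant cells, against 561, 645 and 575 CPM in control cells. It was 1.22-fold higher by the means, a log2FC of 0.29 (SE 0.09) at an adjusted p of 0.0143 in edgeR. Its groups did not overlap, and the call stayed without resistant replicate 1 (0.00316) or control replicate 2 (0.0101). It was lost in the other leave-one-out fits, where the adjusted p in edgeR was 0.0619 without resistant replicate 2, 0.0561 without resistant replicate 3, 0.0554 without control replicate 1 and 0.0719 without control replicate 3. ITGAV shares 203 exon bases with an antisense gene, and no source used here says whether counting used strand. ITGA3, a laminin-binding partner of ITGB1, had 563, 597 and 573 CPM in resistant cells, against 477, 519 and 478 CPM in control cells. Its log2FC was 0.23 (SE 0.09) with an adjusted p of 0.0490 in edgeR, barely under the threshold. That call was lost with library totals in place of TMM (0.0724), with no filter on low counts (0.0626), with halved counts (0.0503), with a replicate block (0.0710), and without resistant replicate 2 (0.128), resistant replicate 3 (0.0979), control replicate 1 (0.106) or control replicate 3 (0.144). ITGAV lies on chromosome 2 from 186590065 to 186680901 and ITGA3 on chromosome 17 from 50055968 to 50090481, both on the plus strand. Of 26 tested genes within 5 Mb of ITGAV, 7 were higher and 4 lower, with a median log2FC of 0.23, and of 60 near ITGA3, 8 were higher and 6 lower, with a median of -0.11. The part of these neighbours in the results was not tested.

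ITGA6, the laminin-binding chain that ITGB1 and ITGB4 share, had 594, 656 and 679 CPM in resistant and 599.8, 655 and 532 CPM in control cells. These overlapped, with a log2FC of 0.11 (SE 0.09, adjusted p = 0.428, edgeR's test), so no difference was detected in the chain whose beta partners changed in opposite directions. Per kilobase and within each library, the ratio of ITGB4 to ITGA6 was 0.319 ± 0.0295 in resistant and 0.567 ± 0.0871 in control cells (SD, n = 3 each), and the ratio of ITGB1 to ITGA6 was 2.43 ± 0.0698 and 1.62 ± 0.145. The ratio of ITGB1 to ITGB4 was 7.15, 7.67 and 8.14 in resistant libraries, against 2.82, 3.15 and 2.68 in control libraries. Each of these ratios separated the groups, at p = 0.10 in the two-sided exact permutation test, the smallest it can give. They were among 6 ratios chosen after the data were seen, and all 6 had that p after adjustment too. The ratios of ITGB1 to ITGB4 and of LAMB3 to LAMB1 had to separate, since their chains did so in opposite directions. The sum of the beta chains over the sum of the alpha chains was 0.983 ± 0.0377 in resistant and 0.872 ± 0.0563 in control cells.

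ITGA5, the fibronectin receptor chain, had 85.6, 105 and 106 CPM in resistant and 96.8, 86.8 and 77.2 CPM in control cells and was not called (adjusted p = 0.277 in edgeR). ITGA2, a collagen-binding chain, had 74.2, 83.8 and 75.6 CPM in resistant and 94.3, 84.7 and 94.7 CPM in control cells. The libraries did not overlap, but the log2FC of -0.22 (SE 0.13) had an adjusted p of 0.217 in edgeR. Another collagen-binding chain, ITGA1, had 9.18, 9.37 and 12.6 CPM in resistant and 3.07, 7.87 and 6.72 CPM in control cells, a log2FC of 0.74 (SE 0.39) at an adjusted p of 0.167 in edgeR. Its level was highest in resistant replicate 3, and without that library the log2FC was 0.58. ITGA1 also shares 475 exon bases with PELO on the same strand.

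ITGA11, a chain that binds fibrillar collagen and is known from fibroblasts, was the alpha chain called lower. It had 7.02, 6.09 and 4.48 CPM in resistant cells, against 15.4, 18.4 and 19.3 CPM in control cells, from 74 and 194 counts. All resistant libraries lay below all control libraries. The log2FC was -1.61 (SE 0.33) with an adjusted p of 0.000272 in edgeR, and -1.43 (0.00258) without resistant replicate 3. Of 13 fibroblast and stellate markers 5 were tested. VIM, SPARC and RGS5 were called higher, 60% of those tested, against 24.1% of all tested genes called. Each had its highest value in resistant replicate 3. In the other resistant libraries the 13 markers summed to 53.4 and 35.1 CPM, within or below the 38.4 to 65.2 CPM of control. Fits without resistant replicate 3 are not given for these markers. The defining collagen COL1A2 was at 0 in resistant replicates 1 and 2 and in control replicate 1, with 13.9, 2.25 and 4.09 CPM in resistant replicate 3 and control replicates 2 and 3, and the part of these markers in the ITGA11 result was not tested. ITGA11 occupies chromosome 15, minus strand, 68296533 to 68432162, with 6 higher and 12 lower among 67 tested neighbours.

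The other alpha chains were low. ITGAE, a chain known from T cells inside epithelia, had 16.5, 10.8 and 11.4 CPM in resistant and 19.0, 21.7 and 14.9 CPM in control cells, with a log2FC of -0.54 (SE 0.28, adjusted p = 0.160, edgeR's test). ITGA7, a laminin-binding chain of muscle, had 4.59, 4.68 and 4.69 CPM in resistant and 3.59, 2.62 and 6.14 CPM in control cells. ITGA10, a collagen-binding chain of cartilage, had 2.70, 4.92 and 0.408 CPM in resistant and 6.15, 4.31 and 4.68 CPM in control cells. Both overlapped between groups and were not called, and the same held for the myeloid chain ITGAM, with 2.43, 7.03 and 3.26 CPM in resistant and 3.07, 4.50 and 7.01 CPM in control cells. Another myeloid chain, ITGAX, had 3.78, 0 and 0.408 CPM in resistant and 3.07, 3.56 and 5.26 CPM in control cells. Its log2FC was -1.60 (adjusted p = 0.128 in edgeR) and moved to -4.02 (adjusted p = 0.0105) without resistant replicate 1. The filter removed ITGA4, ITGA2B, ITGA8, ITGAL and ITGA9. ITGA4, a leukocyte chain that binds fibronectin and VCAM1, had 24 counts over the resistant and 10 over the control libraries. ITGA2B of platelets had 12 and 8, ITGA8 had 6 and 8, ITGAL of leukocytes 6 and 10, and ITGA9 2 and 3. Of 19 leukocyte markers 3 passed the filter, and the list summed to 30.2 to 35.1 CPM in resistant and 35.98 to 44.1 CPM in control libraries. CD2 was at 0 in all libraries, and the defining marker PTPRC had 61 and 26 counts over the groups. Of 7 platelet markers none passed the filter, and they summed to at most 5.39 CPM in resistant and 7.01 CPM in control libraries.

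**Figure D3:**
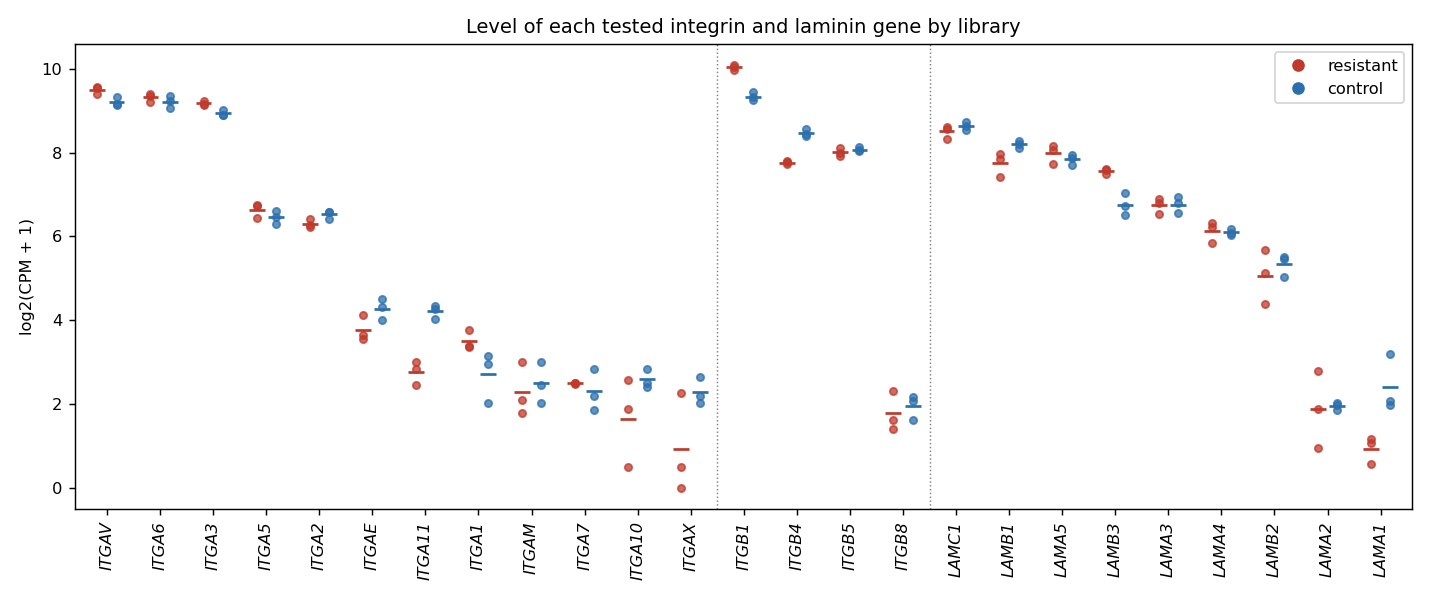
Level of each of the 25 tested genes in each library as log2(CPM + 1), with resistant libraries in red left of control libraries in blue and a short line at the mean of the points (n = 3 each). Dotted lines separate integrin alpha chains, integrin beta chains and laminin chains. ITGB1 reaches 1089 CPM in a resistant library, and ITGAX is at 0 in resistant replicate 2.

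Per kilobase, ITGA3 had 118 ± 3.60 in resistant and 101 ± 4.83 in control cells, ITGA6 110.1 ± 7.54 and 102 ± 10.5, and ITGAV 101 ± 6.08 and 82.4 ± 6.203 (SD, n = 3 each). ITGA3 had the highest mean in resistant cells and ITGA6 in control cells. ITGA3 and ITGA6 in control cells did not differ beyond their spread, nor did ITGA6 and ITGAV in resistant cells. ITGA5 came next at 22.3 ± 2.64 and 19.6 ± 2.21. ITGA3 took 32.0% of the alpha chains in resistant and 30.7% in control cells, and ITGAV 27.2 ± 0.294% and 25.2 ± 0.859%. Summed over all 25 chains, integrin transcripts made up 3548, 3778 and 3775 CPM in resistant libraries, against 3097, 3370.4 and 3128 CPM in control libraries, 1.16-fold by the means without overlap (exact permutation p = 0.10, two-sided, the smallest possible; 0.20 adjusted over 4 sums). The beta chains alone summed to 1531 ± 27.1 CPM in resistant and 1277 ± 56.0 CPM in control cells, and the alpha chains to 2169 ± 112 and 1922 ± 122 CPM (SD, n = 3 each). ITGB1 enters the integrin and beta sums with means of 1050.4 CPM in resistant and 647 CPM in control cells. Those sums are therefore no support beyond the ITGB1 call and do not show a rise across the family. Over the 16 tested integrin chains the median log2FC was -0.145.

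Among the laminin beta chains, LAMB3 rose and LAMB1 fell. LAMB3, known from the epidermal basement membrane, had 179, 191 and 195 CPM in resistant cells, against 105, 129 and 90.3 CPM in control cells. All resistant libraries were above all control libraries. The means were 188 ± 8.24 CPM in resistant and 108 ± 19.7 CPM in control cells (SD, n = 3 each), 1.74-fold higher, a log2FC of 0.79 (SE 0.12) at an adjusted p of 2.19e-06 in edgeR. Without resistant replicate 3 the log2FC was 0.77 (adjusted p = 1.45e-05 in edgeR). LAMB3 occupies chromosome 1, minus strand, 209614870 to 209652466, where 2 of 49 tested neighbours within 5 Mb were higher and 9 lower.

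LAMB1, the beta chain of the most widespread laminins, had 170.3, 248 and 228 CPM in resistant cells, against 294, 309.7 and 277 CPM in control cells. The groups did not overlap, although resistant replicate 1 lay well below the other resistant libraries. The log2FC was -0.44 (SE 0.11) with an adjusted p of 0.00211 in edgeR. It was -0.29 (adjusted p = 0.0337) without resistant replicate 1 and -0.48 (adjusted p = 0.00425) without resistant replicate 3. LAMB1 occupies chromosome 7, minus strand, 107923799 to 108003255, where 6 of 33 tested neighbours within 5 Mb were higher and 4 lower. LAMB2, the chain of vessel and synaptic laminins, had 19.97, 49.9 and 33.8 CPM in resistant and 43.0, 44.2 and 31.9 CPM in control cells, with the resistant libraries spanning the control ones.

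Per kilobase LAMB3 stood at 41.9 ± 1.84 and LAMB1 at 34.7 ± 6.51 in resistant cells, against 24.1 ± 4.39 and 47.2 ± 2.65 in control cells (SD, n = 3 each). Within libraries the ratio of LAMB3 to LAMB1 was 1.46, 1.07 and 1.18 in resistant cells, against 0.496, 0.578 and 0.452 in control cells. LAMB3 took 51.2 ± 4.87% of the 3 beta chains in resistant and 30.7 ± 2.43% in control cells, and LAMB1 41.7 ± 2.67% and 60.5 ± 2.86%. Both shares separated the groups at the smallest p of the two-sided exact permutation test, 0.10 (0.186 adjusted over 13 shares). LAMB3 and LAMB1 make up most of this family, and each already separated the groups by level. Their shares therefore largely mirror each other and are no support beyond the calls above. The LAMB3 share differed by 20.9 points and the LAMB1 share by -19.3 points without resistant replicate 3.

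Of the laminin alpha chains LAMA1 was called. LAMA5, the alpha chain of most adult epithelial laminins, had 211, 283 and 267 CPM in resistant and 232, 245 and 208 CPM in control cells (log2FC 0.15, adjusted p = 0.329 in edgeR). It was lowest among resistant libraries in replicate 1, and without that library the log2FC was 0.27 (adjusted p = 0.0528), against 0.07 (adjusted p = 0.721) without resistant replicate 2. LAMA3, the chain that assembles with LAMB3, had 91.8, 118 and 109.9 CPM in resistant and 121, 110.0 and 92.9 CPM in control cells, a log2FC of -0.01 (SE 0.13, adjusted p = 0.971, edgeR's test). Per kilobase the ratio of LAMB3 to LAMA3 was 4.37 ± 0.411 in resistant and 2.47 ± 0.384 in control cells (SD, n = 3 each). LAMA4, known from vessel walls, had 55.9, 73.3 and 79.1 CPM in resistant and 71.7, 64.6 and 66.3 CPM in control cells (log2FC 0.05, adjusted p = 0.842 in edgeR). It was highest in resistant replicate 3, and without that library the log2FC was -0.05. LAMA2, the muscle chain, had 5.94, 0.937 and 2.65 CPM in resistant and 3.07, 2.62 and 2.92 CPM in control cells and was not called.

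LAMA1, the chain of embryonic laminin, had 1.08, 0.468 and 1.22 CPM in resistant cells, against 8.20, 3.19 and 2.92 CPM in control cells, from 12 and 43 counts. The resistant libraries all lay below the control ones, a log2FC of -2.23 (SE 0.72) at an adjusted p of 0.0204 in edgeR. Control replicate 1 was the highest library, and without it the log2FC was -1.69 (adjusted p = 0.179). The call was also lost with no filter on low counts (0.0585) and without resistant replicate 1 (0.0668) or resistant replicate 2 (0.106) and stayed without resistant replicate 3 (0.0445). LAMA1 occupies chromosome 18, minus strand, 6941744 to 7117814, and shares 431 exon bases with one antisense gene and 113 with another. Of 27 tested genes within 5 Mb of it, 1 was higher and 7 lower, with a median log2FC of -0.08, and their part in the LAMA1 result was not tested.

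LAMC1, the gamma chain of most laminins, had 321, 393 and 377 CPM in resistant and 422, 400.1 and 369 CPM in control cells, with a log2FC of -0.12 (SE 0.10, adjusted p = 0.382, edgeR's test). LAMC3 was removed by the filter with 4 and 6 counts over the groups. Per kilobase LAMC1, at 46.1 ± 4.80 in resistant and 50.3 ± 3.36 in control cells, lay close to the leading beta chain of each group, and LAMA5, at 22.2 ± 3.29 and 19.99 ± 1.62, was the leading alpha chain (SD, n = 3 each). LAMA5 took 53.9% of the alpha chains in resistant and 51.1% in control cells, LAMA3 23.5% and 24.9%, and LAMA4 21.5% and 22.1%. Summed over the 10 chains, laminin transcripts came to 1056, 1359 and 1294 CPM in resistant and 1300.1, 1309 and 1142 CPM in control libraries, overlapping groups with an exact two-sided permutation p of 0.80.

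The genes around these receptors were read from lists of adaptors, ligands and co-receptors. Among 43 tested adaptor and focal adhesion genes, 7 were higher and 5 lower, 27.9% called against 24.1% of all tested genes, with a median log2FC of 0.10. The LIM protein TRIP6 averaged 246 ± 34.2 CPM in resistant and 127 ± 20.9 CPM in control cells, and vinculin, VCL, 376 ± 37.2 and 252 ± 14.9 CPM (SD, n = 3 each). RAP1B, a GTPase that activates integrins, was also higher (log2FC 0.59). The zyxin relative LPP (log2FC -0.75), the tensin TNS3 (-0.50), the adaptor BCAR1 (-0.46) and the second talin, TLN2 (-1.72), were lower. The main talin, TLN1, had 445, 489 and 482 CPM in resistant and 494, 500.1 and 498 CPM in control cells. Its libraries did not overlap, but it was not called (log2FC -0.08, adjusted p = 0.576 in edgeR), nor was the focal adhesion kinase PTK2 (log2FC 0.02, adjusted p = 0.903). The sign of PTK2 turned without resistant replicate 2 (-0.06) or control replicate 3 (-0.02). The kindlin FERMT2 was higher at a log2FC of 0.48 (adjusted p = 0.0182 in edgeR), with its largest value in resistant replicate 3, and was 0.34 (0.189) without that library and 0.46 (0.0637) without control replicate 3. The other kindlins were not called. FERMT3 averaged 264 ± 10.7 CPM in resistant and 261 ± 5.14 CPM in control cells, and FERMT1 34.7 ± 2.28 and 38.8 ± 4.44 CPM (SD, n = 3 each). ILK, the integrin-linked kinase, had 12 counts over the resistant and 8 over the control libraries and was not tested.

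Among the other laminin receptors and the tetraspanins that ride with integrins, 6 of 14 were higher and 2 lower, with a median log2FC of 0.21. The share called was 57.1%, against 24.1% of all tested genes. The tetraspanin CD151, a partner of laminin-binding integrins, had 499.6, 486 and 479 CPM in resistant cells, against 298, 351 and 336 CPM in control cells. CD63, CD9 and the syndecan SDC3 had log2FC of 0.56, 0.49 and 0.70. Dystroglycan, DAG1, a laminin receptor outside the integrin family, had 119.6, 149 and 151 CPM in resistant cells, against 324, 238 and 272 CPM in control cells, with a log2FC of -0.98 (SE 0.11, adjusted p = 1.21e-08, edgeR's test). BCAM, a receptor of LAMA5-containing laminins, was higher at 0.53, TSPAN4 at 0.45, and SDC4, a fibronectin co-receptor, lower at -0.31. The calls of these 3 genes were weak: without resistant replicate 3 the adjusted p in edgeR was 0.116 for BCAM, 0.101 for TSPAN4 and 0.145 for SDC4, without resistant replicate 2 it was 0.0679, 0.132 and 0.112, and without control replicate 1 it was 0.0513, 0.0753 and 0.0538. BCAM and TSPAN4 also lost the call without control replicate 3 (0.115 and 0.105), and SDC4 without resistant replicate 1 (0.0546) or control replicate 2 (0.240). SDC4 was not called either with no filter (0.0724), with a filter at 1 CPM (0.0617) or with a replicate block (0.0523), nor TSPAN4 in DESeq2 (0.0501). Without resistant replicate 3, 5 genes of the list were called in place of 8.

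Of 23 tested integrin ligands, 4 were higher and 6 lower, 43.5% called against 24.1% of all tested genes, with a median log2FC of -0.08. Fibronectin, FN1, had 5929, 8210 and 8131 CPM in resistant cells, against 13603, 12535 and 12299 CPM in control cells, while its receptor chain ITGA5 was not called. Osteopontin, SPP1, a ligand of ITGAV receptors, averaged 425 ± 12.2 CPM in resistant and 811 ± 24.5 CPM in control cells (SD, n = 3 each). The collagen COL6A3 (log2FC -0.85) and ICAM1 (-0.81), a ligand of leukocyte integrins, were lower too. The latent TGF-beta binding protein LTBP1 averaged 119 ± 16.2 CPM in resistant and 42.2 ± 5.81 CPM in control cells, and LTBP3 (log2FC 0.73) and the neural adhesion molecule L1CAM (2.52) were also higher. THBS1, thrombospondin, had a log2FC of 0.46 (adjusted p = 0.00571 in edgeR) with overlapping groups. It lost the call without resistant replicate 3 (0.29, adjusted p = 0.116) or control replicate 2 (0.35, adjusted p = 0.0891) and in DESeq2 (adjusted p = 0.189).

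Of 10 tested genes of the basement membrane outside the laminins, 1 was higher and 2 lower, with a median log2FC of -0.13. The share called was 30%, near the 24.1% of all tested genes. Nidogen, NID1, the linker that binds the laminin gamma chain, had 63.7, 84.1 and 90.5 CPM in resistant cells, against 180.3, 164 and 170.4 CPM in control cells, a log2FC of -1.10 (SE 0.12, adjusted p = 4.61e-09, edgeR's test). The fibulin FBLN1 was lower at -0.50 and TINAGL1, a matrix glycoprotein, higher at 0.59. FBLN1 lost its call without resistant replicate 3 (adjusted p = 0.0600 in edgeR) or control replicate 3 (0.0655), and TINAGL1 without resistant replicate 2 (0.0647) or control replicate 2 (0.0559). Of 4 tested hemidesmosome partners of ITGB4, CD151 alone was called, as above, and PLEC and DST, which link ITGB4 to keratin, had log2FC of 0.05 and 0.09 and were not called. Without resistant replicate 3 the calls of FERMT2, FBLN1, THBS1, BCAM, TSPAN4 and SDC4 were lost, and the other genes named as called in these lists kept theirs.

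**Figure D4:**
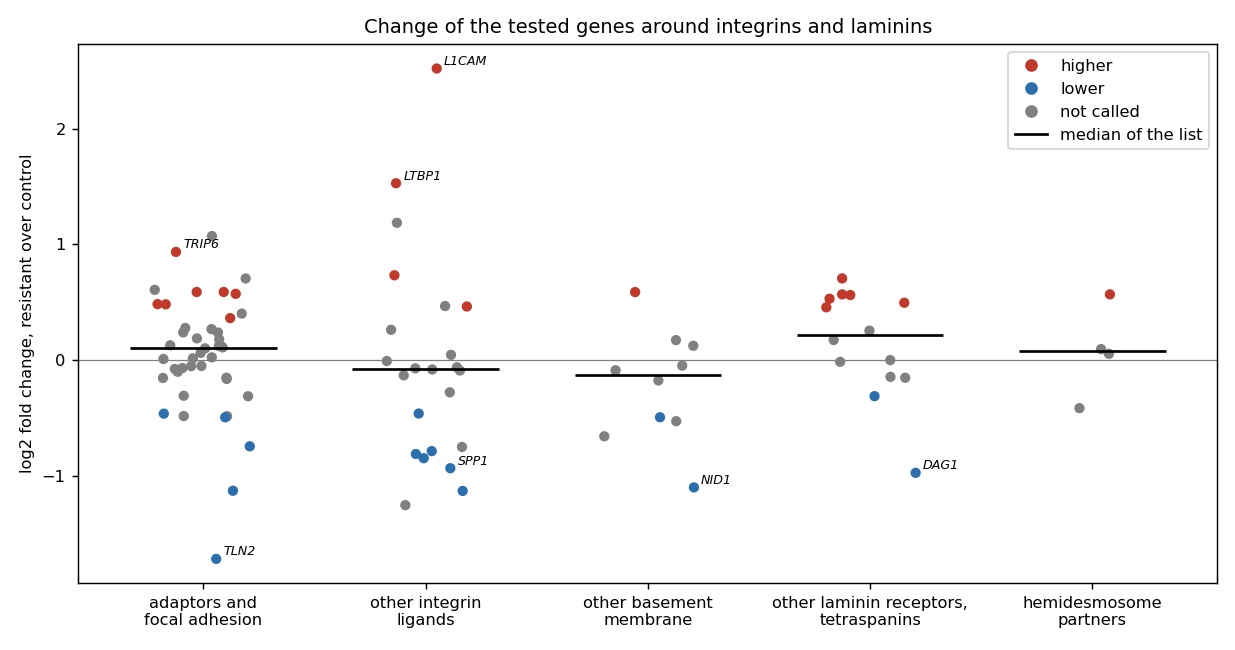
Log2 fold change, resistant over control, of the tested genes in 5 lists around the integrins and laminins, with a black line at the median of each list. Red points were called higher and blue points lower at an adjusted p under 0.05, and CD151 stands in 2 lists. L1CAM at 2.52 and TLN2 at -1.72 mark the extremes among called genes.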

How the data were processed

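Libraries were made by the EasyRNA-seq method from RNA extracted with Trizol and a column kit, per the labels' protocols. Trimmomatic, HISAT2 and Bowtie2 are named without roles or versions per the submitters' processing notes. No source used here names the counter, build, annotation or strand setting. The authors deposited whole-number counts per gene for 19202 genes and 6 libraries, not normalized. Symbols of 27 genes had become dates and were renamed from the Entrez ID. Among counts of 1 to 20, 81.8 to 88.5% were even, a pattern that counting both mates would give, so counting limits are too narrow. Halved counts of replicates gave chi-square values of 1.77 to 2.85 per degree of freedom, above sampling noise, and every library was kept.

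Genes passing filterByExpr were fitted by edgeR 4.0.16 under R 4.3.3 (TMM, quasi-likelihood F test, no term but group). P-values were adjusted by Benjamini-Hochberg over all 10804 tested genes, and SE is the absolute log2FC over the square root of F. The test was tried on simulated counts. Exon lengths are from GENCODE 29, as the union of coding-transcript exons. Single values used a two-sided exact permutation test over libraries. Genes, lists and tests were chosen with earlier results of these data known. Every integrin and laminin chain in the list is accounted for. Of each neighbouring list up to 8 called genes are named by smallest p, and FN1, TLN1, PTK2, ILK and FERMT2 whatever they did. A gene that this rule names is not reported here. PLEC, DST, FERMT1, FERMT3 and the single markers were named after their values were seen. Alternatives were RLE scaling, library totals, DESeq2 1.42.0, other filters, a replicate block, halved counts, an adjusted p of 0.01 and leaving libraries out. Figures used matplotlib 3.10.9.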

Additional observations from a re-analysis of the deposited data

How the results depend on the processing

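ITGB1, LAMB3, ITGB4, LAMB1 and ITGA11 kept their direction and their call in all 15 alternatives. The highest adjusted p over them was 0.000128 for ITGB1, 0.000496 for LAMB3, 7.32e-05 for ITGB4, 0.0337 for LAMB1 and 0.00419 for ITGA11. ITGA3 lost its call in 10, and ITGAV and LAMA1 in 6 each (LAMA1 could be fitted in 14), with no change of sign. The 4 genes called higher became 2 to 4 and the 4 lower 3 to 4 when 1 library was left out, and 2 were higher when control replicate 1 and resistant replicate 3 were both left out. At an adjusted p of 0.01, 2 of the members were higher and 5 genes of the laminin receptor and tetraspanin list were called, with 800 genes higher and 851 lower over the transcriptome. That list had 5 to 7 calls with 1 library left out and 5 without control replicate 1 and resistant replicate 3, and the hemidesmosome list 1 to 2. In all other settings the list counts and transcriptome counts moved by less than 1.5 times.

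Without division by length, ITGB1 held 17.9 points more of the beta chains and ITGB4 -13.6 points. Genes that were not called changed sign in some settings. LAMA3 had 0.0036 without a filter, 0.0102 with at least 1 CPM in 3 libraries and 0.0521 without control replicate 1 and resistant replicate 3, where LAMA4 had -0.0108. With single libraries left out the log2FC ranged from -0.0936 to 0.0969 for LAMA3, -0.0458 to 0.19 for LAMA4, -0.63 to 0.58 for LAMA2, -0.54 to 0.0813 for LAMB2, -0.10 to 0.64 for ITGA7, -0.78 to 0.13 for ITGAM and -0.69 to 0.00714 for ITGB8. PTK2 had -0.06 without resistant replicate 2, -0.02 without control replicate 3 and 0.09 without resistant replicate 1. LAMA5 kept its sign, from 0.07 to 0.27. Shares moved from -0.16 to 0.43 points for ITGA5 and from -1.38 to 0.22 points for LAMA4. Summed over the laminins, the difference ran from -75.4 to 76.1 CPM. The cause was not tested.

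No pairing by replicate number was detected. Same-numbered libraries had correlations of -0.02, 0.03 and -0.01 in their deviations, and other pairs ran from -0.06 to 0.06. This does not show that the libraries were prepared unpaired. With a replicate block, 3 members were higher and 4 lower, the calls of ITGA3 (adjusted p = 0.0710 in edgeR) and SDC4 (0.0523) were lost with no other named call, and LAMA2 had a log2FC of -0.15. Genes of few counts (LAMA1, ITGAX, ITGA10) have SE of 0.62 to 0.77, so only large changes could be detected in them.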
